A study of Arabidopsis thaliana with 8 samples.

Results

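The transcriptome of Arabidopsis thaliana after 24 h at 4 °C was compared with that after 1 h at the same temperature. The comparison rests on 4 of the 8 arrays of the study, 2 for each of these times, and takes in every probe set of the Affymetrix ATH1 array except the array's 64 control probe sets, which leaves 22746 of 22810. The plants were wild type of the accession Col-0, grown on soil in continuous fluorescent light, and the above-ground parts were harvested whole. Both groups had grown at 22 °C in 100 µmol m-2 s-1 and were then moved to 4 °C in about 25 µmol m-2 s-1. The 2 times therefore share temperature and light at harvest and differ in the time since the move, 1 h against 24 h. Plants kept warm for these times were not analysed here. Time in the cold therefore cannot be told apart from time in the dimmer light or from time itself. By the labels the plants were 18 d old at every time, which the stated 4 d of stratification plus 10 d of warm growth do not add up to. The other 4 arrays were a control harvested before the cold in the brighter light and plants kept for 7 d at 4 °C in the dim light.

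Cold acclimation is the process by which plants such as Arabidopsis gain freezing tolerance during days at low, non-freezing temperature. In its best-known branch, CBF transcription factors are made within hours of chilling and switch on the cold-regulated (COR) genes, whose products include dehydrins and other hydrophilic proteins that protect membranes and proteins when cells lose water. A separate burst of transcripts appears within minutes to hours of many stimuli, touch and chilling among them, and includes genes for calmodulin-like calcium sensors, zinc-finger and WRKY transcription factors and U-box ubiquitin ligases. The comparison of 24 h with 1 h sets the late phase against this early one at the same light level. Both times followed the same drop in light, 1 h and 24 h before harvest.

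Transcript levels are MAS5 signals, an intensity summed up from the short probes of a probe set and scaled to the same trimmed mean on every array. Of 14756 probe sets bright enough to be tested, 1707 were higher at 24 h than at 1 h (11.6%) and 2206 were lower (14.9%) at an adjusted p under 0.05 in limma, with 2 arrays per time. At least 2-fold differences made up 703 of the higher (4.76%) and 931 of the lower (6.31%), and at least 4-fold differences 133 (0.901%) and 165 (1.12%). Signals of the 2 times did not overlap in 67.1% of all tested probe sets, so a lack of overlap by itself sets a gene little apart. The median log2 change over all tested probe sets was -0.07, with quartiles of -0.42 and 0.28. Of the called probe sets 43.6% were higher. That share moved with the scaling, to 49.8% after quantile normalization (1871 higher, 1887 lower) and to 61.1% when each array was centred on its median (2454 higher, 1560 lower), which shifted the median change over all tested probe sets from -0.07 to 0.07. Leaving out 1 of the 4 arrays lowered the counts by more than 1.5 times. They were 973 higher and 994 lower without 1 h replicate 1, and 1119 and 1257 without 1 h replicate 2. They were 967 and 1379 without 24 h replicate 1, and 914 and 1176 without 24 h replicate 2. Nothing in the labels says whether replicates came from separate plantings, so the p-values measure the spread between these arrays, which may be technical.

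Across probe sets, the replicate arrays correlated with r = 0.975 at 1 h and 0.974 at 24 h, and a 1 h array with a 24 h array at 0.885 to 0.892 (probe sets are not independent replicates). Median signals were 37.5 on both 1 h arrays and 34.3 and 32.8 on the 24 h arrays. Ratios of 3′ to 5′ signal, a measure of RNA integrity and labelling, were 1.46 and 1.46 for GAPDH at 1 h against 1.34 and 1.18 at 24 h. For ubiquitin they were 2.08 and 1.90 against 2.39 and 2.65, and for actin 1.31 and 1.403 against 1.15 and 1.37. The GAPDH ratio was thus lower and the ubiquitin ratio higher on both 24 h arrays, and the actin ratios of the 2 times overlapped. Their part in the results was not tested. Of the called probe sets, 889 higher and 1199 lower ones named 1 gene in the platform annotation, 34 and 57 named several, and 784 and 950 named none. A gene counts as named below only if a probe set names it alone. The largest differences in both directions, 6.96 and -4.44 on the log2 scale, belonged to probe sets without a gene name here. The annotation names only part of each gene list, and the groups below are described from those members. Lists and members were chosen with earlier results of these data known. Their counts beside the shares of all probe sets are therefore descriptions, not tests.

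**Figure D1:**
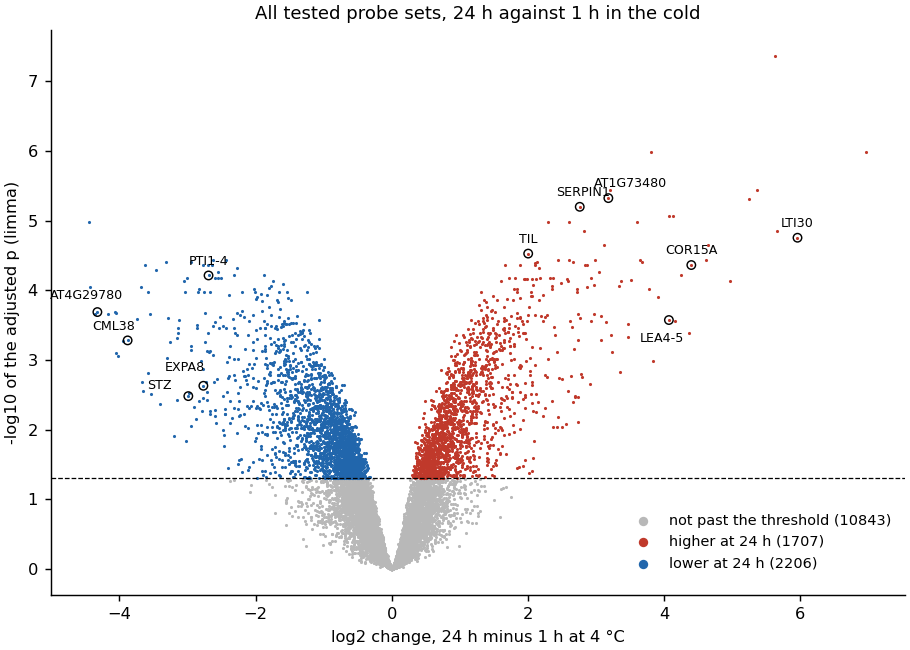
Each point is 1 of the 14756 tested probe sets, with the log2 change from 1 h to 24 h at 4 °C on the horizontal axis and the -log10 of limma's adjusted p on the vertical axis; the dashed line is the threshold of 0.05. The 1707 higher (red) and 2206 lower (blue) probe sets lie above it, with LTI30 at 5.96 among the largest rises and AT4G29780 at -4.32 among the largest falls.

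COR genes and other CBF targets made up the group that rose most. All 6 tested members of 18 listed rose, with a median log2 change of 3.69 beside -0.07 over all tested probe sets, where 11.6% rose. LTI30, a dehydrin also called XERO2, had signals of 161 and 71.2 at 1 h and of 7291 and 6834 at 24 h. The 24 h arrays were thus far above both 1 h arrays, a 62.1-fold rise (log2 5.96 ± 0.31 SE, adjusted p = 1.75e-05). COR15A, which encodes a chloroplast protein that stabilises membranes during freezing, read 396 and 211 at 1 h and 6316 and 6125 at 24 h, a 21.1-fold rise (log2 4.40 ± 0.29, adjusted p = 4.32e-05). Its close relative and neighbour COR15B went from 419 and 230 to 4843 and 4654, or 15.02-fold (log2 3.91 ± 0.32, adjusted p = 0.000123). Whether the probe sets of these similar genes share signal was not tested.

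COR47, another dehydrin, started from the highest signals of the group, 998 and 524 at 1 h, and reached 8184 and 7912 at 24 h (log2 3.46 ± 0.38, adjusted p = 0.000472). COR27, which encodes a small regulator that connects the cold response with the circadian clock, had 166 and 60.5 at 1 h against 687 and 680 at 24 h, a 6.45-fold rise (log2 2.69 ± 0.45, adjusted p = 0.00325). AT4G33980 was the smallest of the 6 changes, from 85.6 and 26.9 to 176 and 162 (log2 1.67 ± 0.43, adjusted p = 0.0225). Its call was lost without 1 h replicate 2 (adjusted p = 0.0909), without 24 h replicate 1 (0.0984) and without 24 h replicate 2 (0.0866). The other 5 calls held under every alternative tried. The 24 h arrays lay close together for all 6 genes, whereas 1 h replicate 1 was above 1 h replicate 2 in each of them. Without 1 h replicate 1 the median of the group was 4.13, and without 1 h replicate 2 it was 3.24. Because whole shoots were harvested, a change in transcript per cell and a change in the share of cells expressing a gene cannot be told apart for these or any later genes.

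**Figure D2:**
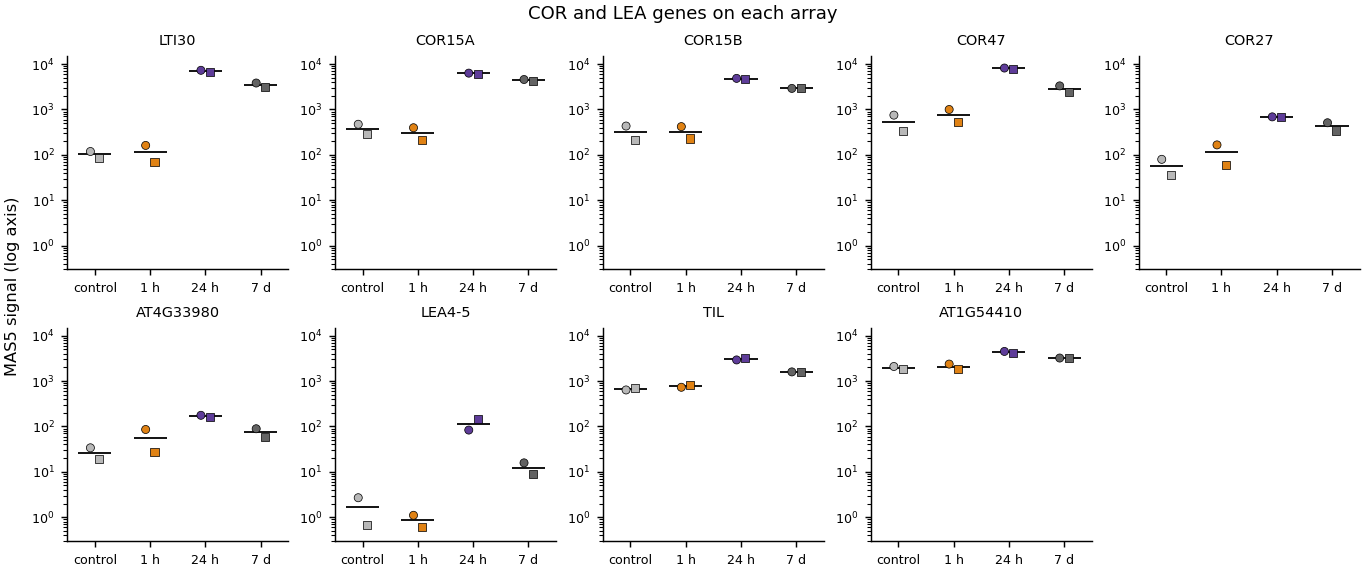
MAS5 signals, on a log axis, of 6 COR and 3 LEA-type genes on each of the 8 arrays, with circles for replicate 1, squares for replicate 2 and bars for the mean of 2 arrays. For each gene both 24 h arrays lie above both 1 h arrays, and the 7 d arrays lie between the 24 h arrays and the control.

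Late embryogenesis abundant (LEA) and other dehydration-induced proteins protect cells that lose water. Of 12 listed, 5 were named on the array and 3 were bright enough to test. LEA4-5 passed the filter on dim probe sets through its 24 h arrays alone, so that it had to be higher there, and its rise is given as a description. It read 1.1 and 0.596 at 1 h and 83.2 and 145 at 24 h (log2 4.07 ± 0.39, adjusted p = 0.000266). Its 1 h signals lay under 6.07, the value below which 20% of all signals fall, so the size of its fold change depends on the pseudocount. TIL, a temperature-induced lipocalin, rose 4.01-fold from 729 and 807 to 2919 and 3279 (log2 2.00 ± 0.11, adjusted p = 2.96e-05). AT1G54410, the dehydrin HIRD11, was already bright at 1 h, with 2365 and 1810, and rose to 4492 and 4228 (2.1-fold, adjusted p = 0.000830). The probe sets of the 2 remaining members named on the array were too dim to test.

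The other genes among the 15 largest named rises are known to the annotation by locus tag alone. AT1G16850 had 24.2 and 11.96 at 1 h and 1058 and 1295 at 24 h, a 50.4-fold rise (log2 5.66 ± 0.29, adjusted p = 1.43e-05); among the named genes LTI30 alone changed more. AT3G55580 went from 6.45 and 16.8 to 446 and 375 (log2 4.62 ± 0.28), and AT1G68500 from 33.9 and 35.2 to 775 and 642 (log2 4.13 ± 0.19). AT1G48100 reached 780 and 929 from 40.1 and 50.4, a change of 4.07 ± 0.18. AT1G73480 had one of the steadiest rises, from 130 and 149 to 1252 and 1372 (log2 3.18 ± 0.13, adjusted p = 4.73e-06). The remaining 5, AT1G51090, AT3G17130, AT2G43620, AT1G80130 and AT4G30830, rose by 3.21 to 3.77. The rule that picked these 10 required their 24 h arrays to lie above their 1 h arrays, so that is no further result. Their calls held in all alternatives.

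Several genes with a symbol are given as further examples, picked for the size and steadiness of their rise after their values were seen. SERPIN1, a protease inhibitor, read 222 and 214 at 1 h and 1484 and 1540 at 24 h, 6.78-fold higher (log2 2.76 ± 0.12, adjusted p = 6.31e-06). BETA-VPE, a vacuolar processing enzyme that cleaves storage and other vacuolar proteins, went from 20.7 and 41.8 to 234 and 318 (log2 2.96 ± 0.27). CCT2, an enzyme of phosphatidylcholine synthesis, rose 6.03-fold from 62.1 and 42.6 to 368 and 316 (adjusted p = 7.23e-05). The plant defensin genes PDF2.1 and LCR69 rose by 2.74 ± 0.46 and 1.84 ± 0.28 on the log2 scale, LCR69 from 1979 and 1111 to 5202 and 5470. RD2 rose by 2.3 ± 0.11, SAT32, named for salt tolerance, by 2.18 ± 0.16, and DI21, named for its induction by drought, by 1.76 ± 0.28. TET3, a tetraspanin membrane protein, rose from 99.8 and 86.4 to 418 and 424 (4.32-fold, adjusted p = 4.31e-05).

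Genes for ribosome biogenesis, the making of ribosomal RNA and its assembly in the nucleolus, rose together by a modest and uniform amount. All 6 tested members of 16 listed rose, beside 11.6% of all probe sets, with a median log2 change of 1.27 and a range from 1.17 to 1.42. AT5G14520, the Arabidopsis PESCADILLO gene needed for maturation of the large ribosomal subunit, had 266 and 257 at 1 h and 704 and 614 at 24 h (2.48-fold, log2 1.31 ± 0.14, adjusted p = 0.000472). AT3G05060 changed most, from 180 and 153 to 451 and 457 (2.68-fold, adjusted p = 0.00113), and AT2G40360 least, from 196 and 214 to 471 and 461 (2.24-fold, adjusted p = 0.000479). AT3G03920 was the brightest, at 401 and 476 against 1005 and 1048. AT5G15550 and AT3G12860 rose by 1.31 ± 0.18 and 1.24 ± 0.24.

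Further genes of this process were picked for their rise after their values were seen. YAO, a nucleolar protein of ribosomal RNA processing, went from 57.7 and 81.8 to 217 and 243 (3.15-fold, adjusted p = 0.000558). PRH75, a DEAD-box RNA helicase of the nucleolus, went from 420 and 271 to 896 and 919 (2.66-fold, adjusted p = 0.00134). NRPA1, the largest subunit of RNA polymerase I, which transcribes the ribosomal RNA genes, went from 52.0 and 57.0 to 134 and 138 (2.34-fold, adjusted p = 0.00116). For the 6 listed genes and these 3, the calls held under every alternative. In the control their signals were close to those at 1 h, for example 252 and 280 for AT5G14520 and 71.0 and 60.8 for NRPA1, and at 7 d they lay below those at 24 h, at 427 and 347 and at 80.4 and 64.0. No probe set named a listed gene of the cytosolic ribosomal proteins alone, so that list could not be described.

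Most of the 15 largest named falls were of genes with a peak at 1 h, which neither the control nor the later arrays showed. AT4G29780 had 697 and 460 at 1 h and 28.7 and 17.44 at 24 h, a 20-fold fall (log2 -4.32 ± 0.39, adjusted p = 0.000205), while the control read 24.1 and 53.6. AT3G04640 fell from 796 and 779 to 50.9 and 72.2 (log2 -3.57 ± 0.29, adjusted p = 0.000106), beside 39.7 and 75.7 in the control. AT2G41640 and AT1G33760, with 145 and 113 and with 136 and 73.4 at 1 h, were under 3 at 24 h, so that their log2 changes of -4.05 and -3.95 are sizes set in part by the pseudocount. These 2, AT2G27080, AT3G10930 and CML38 passed the filter on dim probe sets through their 1 h arrays alone, so that they had to be lower at 24 h. AT4G27280 fell from 997 and 736 to 54.8 and 79.4, and AT1G19380 from 481 and 516 to 54.2 and 38.6. AT2G27080, AT1G25400, AT1G72920, AT3G10930, AT3G48650 and AT1G72940 had log2 changes from -3.74 to -3.16. Of these, AT1G25400 passed the filter only with its 1 h arrays and 1 control array.

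CML38, a calmodulin-like calcium sensor, was among the same 15, at 241 and 206 at 1 h and 5.40 and 15.02 at 24 h (log2 -3.88 ± 0.44, adjusted p = 0.000522). Not all of the 15 had a peak at 1 h. AT1G13650 read 88.4 and 187 in the control and 73.0 and 145 at 1 h, and then 3.31 and 7.23 at 24 h and 4.92 and 9.63 at 7 d (log2 change from 1 h to 24 h -3.29 ± 0.42, adjusted p = 0.000934). ZCF37 likewise had 26.4 and 48.9 in the control, 61.3 and 72.5 at 1 h and under 3 on all 24 h and 7 d arrays (log2 -3.15 ± 0.34). These 15 calls held under every alternative tried.

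Among the early stress transcription factors, the annotation named 2 of 27 listed, and both fell, beside 14.9% of all probe sets. STZ, a zinc-finger repressor also called ZAT10 that many stresses induce, had 1329 and 1134 at 1 h and 136 and 165 at 24 h, a 7.93-fold fall (log2 -2.99 ± 0.50, adjusted p = 0.00329), beside 61.9 and 129 in the control. AT2G28200 went from 65.5 and 60.9 to 25.6 and 23.1 (2.28-fold lower, adjusted p = 0.00262). CBF1, CBF2 and CBF3 were not named alone by a probe set, so the CBF genes themselves are not described.

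Of 3 tested WRKY genes, 2 fell, beside 14.9% of all probe sets. WRKY22, a regulator of defence responses, went from 99.7 and 78.3 to 27.5 and 23.59 (log2 -1.58 ± 0.20, adjusted p = 0.00102), a return to the 26.2 and 28.0 of the control. WRKY53, a regulator of leaf senescence, went from 238 and 286 to 19.6 and 40.7 (log2 -2.95 ± 0.61, adjusted p = 0.00888), and its call was lost without 24 h replicate 1 (adjusted p = 0.0627). Of 6 tested touch and calmodulin-like genes, 4 fell and 0 rose, beside 14.9% and 11.6% of all probe sets. For CML38 and CML37 this direction was fixed by the filter, which they passed through their 1 h arrays alone. Of the other 4, CML42 and AT3G01830 fell. CML42 went from 121 and 141 to 60.7 and 45.1 (2.34-fold lower, adjusted p = 0.00316), and it was as bright in the control, at 114 and 137. AT3G01830 fell by 3.02 ± 0.70 (adjusted p = 0.0144), from 117 and 138 to 8.24 and 12.8. CML37 fell by 1.73 ± 0.50 (adjusted p = 0.0339), from 53.0 and 41.0 to 5.87 and 15.1. Both calls were lost without any 1 of the 4 arrays of the 2 times, with adjusted p from 0.0558 to 0.0772 for AT3G01830 and from 0.0528 to 0.166 for CML37. That of CML37 was lost as well with quantile normalization (0.0556), a pseudocount of 1 (0.0690) and no filter (0.0534). AT5G39670 had 170 and 268 against 38.0 and 94.8, a difference of -1.72 ± 0.66 that did not pass (adjusted p = 0.0859). It passed with the 4 arrays of the 2 times alone (0.0181) and without either 7 d array (0.0399 and 0.0388).

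**Figure D3:**
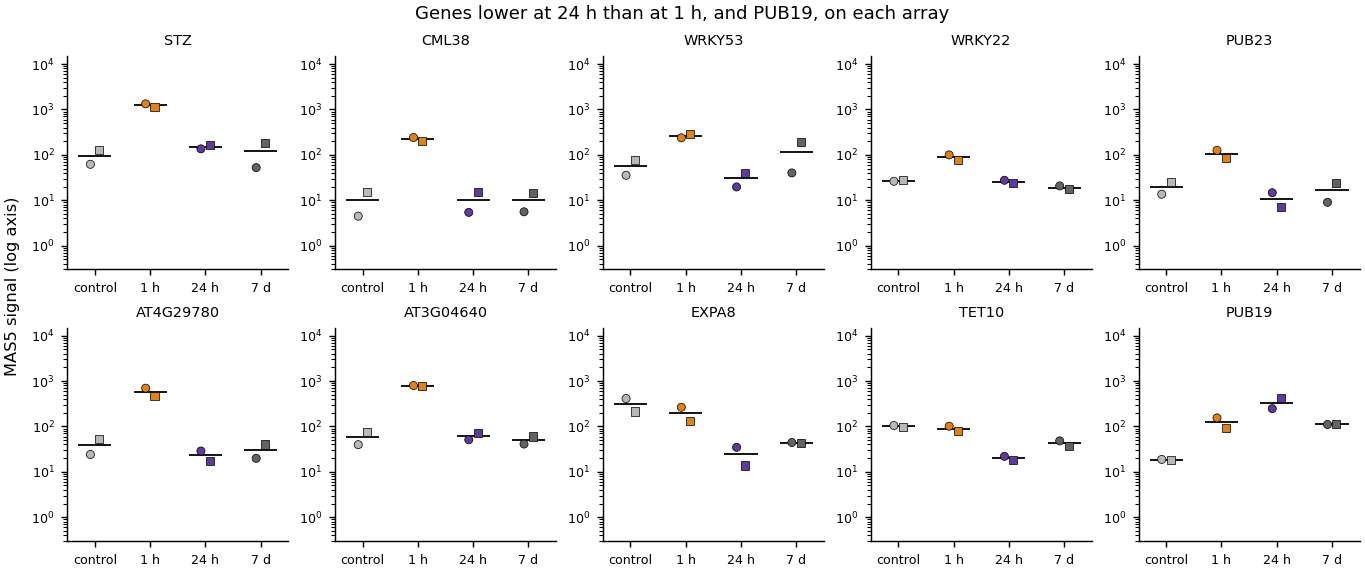
MAS5 signals, on a log axis, of 9 genes lower at 24 h than at 1 h and of PUB19 on each of the 8 arrays; circles are replicate 1, squares replicate 2 and bars the mean of 2 arrays. STZ, CML38, WRKY22, PUB23, AT4G29780 and AT3G04640 stand out at 1 h alone, EXPA8 and TET10 are at least as bright in the control as at 1 h, and PUB19 is highest at 24 h.

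Plant U-box (PUB) ubiquitin ligases attach ubiquitin to target proteins, and several of them dampen immune and drought responses. Of 12 listed PUB and ATL ligases 5 were tested, 4 fell and 1 rose, beside 14.9% and 11.6% of all probe sets. PUB23 went from 126 and 84.7 at 1 h to 14.6 and 7.05 at 24 h (6.64-fold lower, log2 -2.73 ± 0.41, adjusted p = 0.00205). PUB19 moved the other way, from 154 and 92.6 to 247 and 414 (2.59-fold higher, log2 1.37 ± 0.27, adjusted p = 0.00766), above the 18.8 and 18.4 of the control. The call of PUB19 was lost without 24 h replicate 2 (adjusted p = 0.0529).

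PUB24 fell from 54.5 and 65.3 to 21.2 and 27.0, PUB25 from 60.6 and 40.8 to 24.5 and 20.9 and PUB26 from 26.8 and 26.4 to 2.35 and 11.1, with adjusted p of 0.0227, 0.0473 and 0.0282. These 3 calls were fragile, and PUB26 passed the filter only with its 1 h arrays and 1 control array. Leaving out 1 of the 4 arrays gave adjusted p from 0.0611 to 0.111 for PUB24 and from 0.0620 to 0.253 for PUB25, in every case. For PUB26 it gave 0.116, 0.105 and 0.129 without 1 h replicate 1, 1 h replicate 2 and 24 h replicate 1. PUB25 was also lost with quantile normalization (0.0701), with centring (0.0699), with a pseudocount of 1 (0.0527), with no filter (0.0892) and without either control array (0.0601 and 0.0584).

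Other genes for signalling proteins that fell were chosen after their values were seen. PTI1-4, a protein kinase related to the Pto-interacting kinase of tomato, went from 272 and 209 to 31.7 and 32.0 (6.45-fold lower, adjusted p = 6.10e-05). TET8, a tetraspanin, went from 1140 and 1108 to 214 and 358 (log2 -2.0 ± 0.36), and SRC2, a membrane-binding C2-domain protein, from 1940 and 1595 to 555 and 733 (log2 -1.45 ± 0.27). AR781 went from 287 and 263 to 61.7 and 42.1 (log2 -2.30 ± 0.34). The control signals of TET8, SRC2 and AR781 were 239 and 405, 507 and 555, and 45.3 and 88.7, so all 3 were brighter at 1 h than before the cold, and PTI1-4, with 121 and 158 in the control, went below it at 24 h. RALFL33, a member of the RALF family of secreted peptides, some of which restrain cell expansion, went from 451 and 406 to 125 and 96.2 (log2 -1.91 ± 0.16, adjusted p = 0.000141).

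Several cell wall genes of growing tissue fell between 1 h and 24 h. Expansins loosen the wall and xyloglucan endotransglucosylases (XTH) cut and rejoin its xyloglucan chains. Of 32 listed 13 were tested. Of these 5 fell and 1 rose, beside 14.9% and 11.6% of all probe sets, and 7 did not pass. EXPA8 went from 265 and 132 at 1 h to 34.7 and 13.8 at 24 h (6.80-fold lower, log2 -2.77 ± 0.43, adjusted p = 0.00234), with 412 and 214 in the control. EXPB3 fell 2.49-fold from 136 and 119 to 41.2 and 54.5 (adjusted p = 0.00145), and EXPB1 2.82-fold from 42.0 and 70.9 to 16.4 and 14.6 (adjusted p = 0.00316). These 3 calls held throughout. EXLB1 fell from 86.7 and 143 to 28.1 and 51.9, a call lost without 1 h replicate 2 (adjusted p = 0.0603) or 24 h replicate 1 (0.0610). EXPA4 fell from 169 and 174 to 111 and 113 (log2 -0.58 ± 0.15, adjusted p = 0.0195), a call lost without any 1 of the 4 arrays (0.0788 to 0.0866) and with centring (0.0618). EXLA2 rose from 36.3 and 25.0 to 106 and 85.4 (log2 1.48 ± 0.30, adjusted p = 0.00822), a call lost without 1 h replicate 2 (0.0529) or 24 h replicate 1 (0.0579). The other 3 expansins tested, EXPA16, EXPA15 and EXLA1, did not pass, with differences of 0.79, 0.06 and 0.05. Of the 4 XTH genes tested 0 passed by limma and 2 had an unadjusted p under 0.05, with differences from -0.57 to 0.50. Their 1 h and 24 h arrays overlapped in XTH33 alone, but 67.1% of all tested probe sets had no overlap either.

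Other genes of wall synthesis and growth, and a tetraspanin gene, were picked for their fall after their values were seen. CSLA03, of the family that makes the mannan backbone, went from 75.2 and 76.9 to 16.8 and 10.1 (4.27-fold lower, adjusted p = 0.000271). CSLC04, of the family that makes the xyloglucan backbone, went from 308 and 275 to 137 and 79.7 (2.68-fold lower, adjusted p = 0.00260). GH9B13, a glycosyl hydrolase of the endoglucanase family, fell by 2.09 ± 0.38 and TET10, a tetraspanin, by 1.86 ± 0.19. EXO, named EXORDIUM and linked to brassinosteroid-dependent leaf growth, fell by 1.92 ± 0.39 from 460 and 307 to 148 and 60.1 (adjusted p = 0.00851), a call lost without 1 h replicate 1 (0.0613). The control signals of CSLA03, CSLC04 and TET10 were close to those at 1 h, and those of EXO, 135 and 156, were below them.

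Sugar carriers changed in both directions. SWEET proteins let sugars pass through membranes by facilitated diffusion, and TMT carriers load hexoses into the vacuole. Of 8 tested genes 4 rose and 1 fell, beside 11.6% and 14.9% of all probe sets, and 3 did not pass. SWEET13 went from 17.5 and 27.4 to 104 and 126 (4.28-fold, log2 2.1 ± 0.19, adjusted p = 0.000224). SWEET1 rose 2.61-fold from 176 and 183 to 464 and 492 (adjusted p = 0.000148), SWEET4 3.14-fold from 25.6 and 32.9 to 89.0 and 122 (adjusted p = 0.000677) and TMT2 3.48-fold from 109 and 71.0 to 293 and 353 (adjusted p = 0.000585). SWEET17, a fructose carrier of the vacuole membrane, fell from 197 and 268 to 83.2 and 71.1 (log2 -1.51 ± 0.34, adjusted p = 0.0122). Its call was lost without 1 h replicate 2 (0.0720) or 24 h replicate 2 (0.0737). SWEET11, which exports sucrose towards the phloem and was the brightest of the carriers, read 1036 and 924 against 732 and 786 (log2 -0.36 ± 0.17, adjusted p = 0.139). At 7 d SWEET13 and SWEET4 were brighter still, at 275 and 253 and at 147 and 170.

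The 4 tested genes of starch, sucrose, raffinose and proline metabolism, of 24 listed, did not pass, with changes from -0.58 to 0.19 and 0 unadjusted p under 0.05 by limma. The galactinol and raffinose synthases, the beta-amylases and the proline synthesis genes of that list were not named on the array here.

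The 2 tested clock genes of 27 listed both rose, beside 11.6% of all probe sets. GI (GIGANTEA), which links the circadian clock to flowering time, had 114 and 74.6 at 1 h and 380 and 379 at 24 h (3.93-fold, log2 1.97 ± 0.26, adjusted p = 0.00104). AT5G52660 rose 2.04-fold, from 70.3 and 61.9 to 131 and 152 (adjusted p = 0.00230). The plants were in continuous light, and how the clock time of the harvests compares is not given in the sources used here. Of 3 tested early auxin-response genes 2 rose, beside the same 11.6%. IAA29, an Aux/IAA repressor of auxin signalling, went from 39.7 and 24.6 to 203 and 120 (4.33-fold, adjusted p = 0.00555). GH3.3, an enzyme that conjugates auxin to amino acids, went from 15.1 and 29.8 to 68.1 and 55.1 (adjusted p = 0.0182). The call of GH3.3 was lost without 1 h replicate 1 (0.113), 24 h replicate 1 (0.1) or 24 h replicate 2 (0.0579). WES1, its relative GH3.5, read 48.3 and 33.8 against 65.1 and 54.8 and did not pass (log2 0.50 ± 0.21, adjusted p = 0.113), but passed when arrays were centred (0.0463).

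Flavonoid synthesis, which makes flavonols and the red anthocyanins, was represented by 5 genes of 23 listed. UGT78D2, which adds glucose to flavonols and anthocyanidins, rose from 150 and 201 to 304 and 394 (log2 0.97 ± 0.23, adjusted p = 0.0145). Its call was lost without 1 h replicate 1 (0.0962) or 24 h replicate 2 (0.0995). AT4G14090 was at the edge of the threshold, 29.4 and 51.8 against 14.4 and 19.9 (log2 -0.98 ± 0.31, adjusted p = 0.0487). It was lost under several alternatives, for example with the 4 arrays alone (0.0546), and reached 0.284 without 1 h replicate 2. DFR, the dihydroflavonol reductase of anthocyanin synthesis, read 70.1 and 110 at 1 h and 31.6 and 57.5 at 24 h and did not pass (log2 -0.94 ± 0.46, adjusted p = 0.163). UGT78D3, a flavonol arabinosyltransferase chosen after its values were seen, rose from 0.455 and 5.84 to 58.3 and 44.7 (log2 2.70 ± 0.45, adjusted p = 0.00341), but it passed the filter through its 24 h arrays alone and so had to be higher there.

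Nuclear genes of photosynthesis were bright on all 4 arrays. Of 8 tested photosystem and light-harvesting genes of 45 listed, 2 were lower and 0 higher, a share near the 26.5% of all tested probe sets called in either direction, and the median change was -0.05. LHCB4.3, an isoform of a minor antenna protein of photosystem II, went from 818 and 735 to 505 and 447 (log2 -0.70 ± 0.12, adjusted p = 0.00418), and was at 107 and 110 after 7 d. Its relative LHCB4.2 went from 2756 and 3274 to 2384 and 1882 (log2 -0.50 ± 0.13, adjusted p = 0.0235), a call lost without 1 h replicate 2 (0.136), without 24 h replicate 2 (0.151), with centring (0.0579), with no filter (0.0642) and without the variance trend (0.0659). The median of this group was 0.09 when arrays were centred and -0.30 after quantile normalization, so it has no settled sign. Of 3 tested Calvin cycle genes none passed, with changes from -0.17 to 0.24, and 1 had an unadjusted p under 0.05 by limma.

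Of 8 tested genes of tetrapyrrole and chlorophyll synthesis 2 fell and 0 rose, beside 14.9% and 11.6% of all probe sets. The share called was near the 26.5% of all tested probe sets called in either direction. All 8 means were lower at 24 h as scaled here, by 0.03 to 0.75 on the log2 scale, and after quantile normalization, but 6 of 8 when arrays were centred. Over all tested probe sets 55.6% were lower as scaled here and 44.3% when centred. HEME1, a uroporphyrinogen decarboxylase, fell 1.68-fold from 501 and 535 to 323 and 290 (log2 -0.75 ± 0.12, adjusted p = 0.00269). CHLM, the magnesium-protoporphyrin methyltransferase of the chlorophyll branch, went from 1303 and 1410 to 990 and 799 (log2 -0.60 ± 0.13, adjusted p = 0.0112), a call lost without 1 h replicate 2 (0.0636) or 24 h replicate 2 (0.0806).

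Genes of the plastid genome, transcribed in the chloroplast, were measured in large part, 47 of 49 listed for photosynthesis and 20 of 30 for gene expression. Of the 47 tested plastid photosynthesis genes 3 rose and 7 fell, beside 11.6% and 14.9% of all probe sets, with a median of -0.02, which was -0.25 without 24 h replicate 1. The share that fell was thus near the background and the share that rose was below it, so the genes below are described singly. psbA, which encodes a reaction-centre protein of photosystem II that is replaced rapidly in the light, went from 558 and 433 at 1 h to 1124 and 884 at 24 h (2.02-fold, log2 1.01 ± 0.19, adjusted p = 0.00515), beside 1289 and 1516 in the control. psbN, for a factor of photosystem II assembly, rose 2.15-fold from 38.6 and 22.7 to 85.6 and 58.9 (adjusted p = 0.0126), a call lost without 1 h replicate 2 (0.0737) or 24 h replicate 1 (0.0849). psaJ, for a small subunit of photosystem I, rose 1.4-fold (adjusted p = 0.0138) from 2212 and 1897 to 3006 and 2758, lost without 1 h replicate 2 (0.0877), without 24 h replicate 1 (0.0878) and after quantile normalization (0.179). psbT, for a small subunit of photosystem II, lies beside psbN on the other strand and moved the opposite way, from 397 and 383 to 205 and 201 (1.89-fold lower, adjusted p = 0.00768). The neighbours ycf4, for an assembly factor of photosystem I, and cemA, for a protein of the envelope membrane, fell by 0.96 ± 0.20 and 0.74 ± 0.14. ndhE, a subunit of the NDH complex, fell by 0.93 ± 0.20. The calls of ycf4 and ndhE were lost without 1 h replicate 1 (0.0511 and 0.0759) and without 24 h replicate 2 (0.0736 and 0.0524), and that of ndhE also without 24 h replicate 1 (0.0599). The other 3 that fell were ndhG, petG and psbC, by 0.79, 0.82 and 0.81, calls that were each lost without 1 h replicate 1 (0.124, 0.169 and 0.160) and without 24 h replicate 2 (0.136, 0.164 and 0.230). That of psbC was lost in 8 further settings and that of ndhG in 2.

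Of 20 tested plastid genes for transcription and translation, 4 fell and 0 rose, beside 14.9% and 11.6% of all probe sets, so that the share that fell was near the background, with a median of -0.34, and 5 had an unadjusted p under 0.05 by limma. The ribosomal protein gene rps2 went from 1098 and 1135 to 713 and 743 (1.53-fold lower, log2 -0.61 ± 0.12, adjusted p = 0.00674). It was at 1354 and 1555 after 7 d. The others were rps18 and the RNA polymerase genes rpoA and rpoB, which fell by 0.66, 0.47 and 0.61. rpoB went from 130 and 135 to 72.3 and 99.2 (adjusted p = 0.0268), and its call was lost without 1 h replicate 1 (0.0931), without 1 h replicate 2 (0.108), without 24 h replicate 1 (0.152), with centring (0.0816) and after quantile normalization (0.0542). Without 1 h replicate 1 the calls of rps18 (0.142) and rpoA (0.133) were lost too, as they were without 24 h replicate 2 (0.143 and 0.165), and that of rpoA in 4 further settings.

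**Figure D4:**
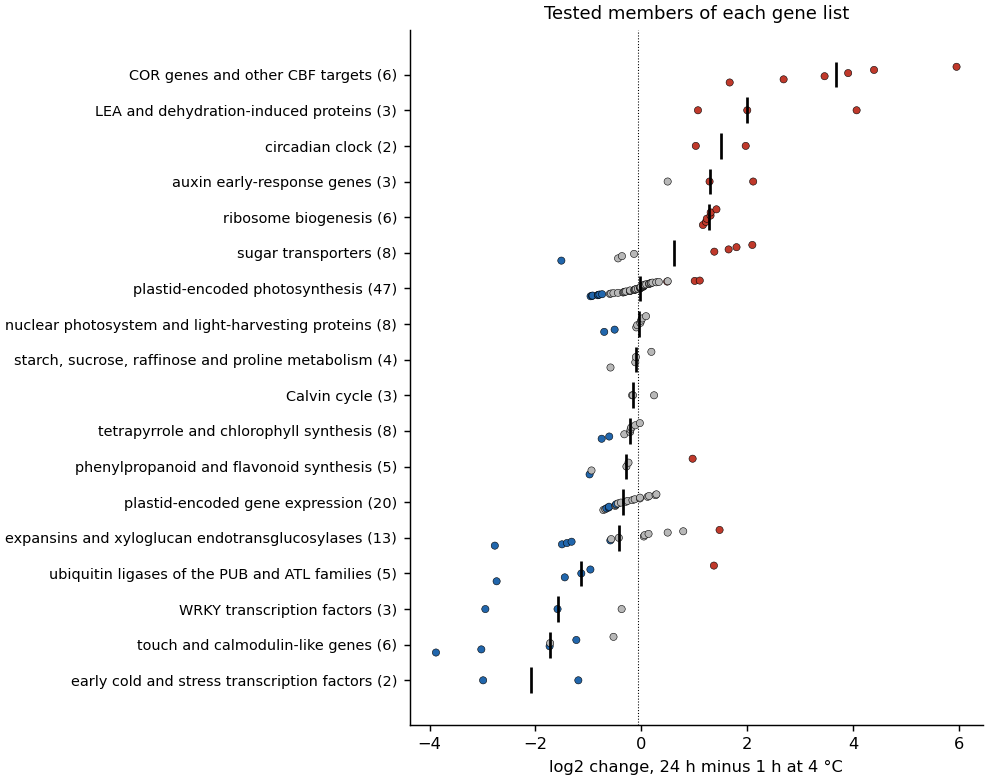
Log2 change from 1 h to 24 h at 4 °C of each tested member of the gene lists with at least 2 of them, with the number tested in brackets. Red points rose, blue points fell, grey points did not pass, black bars are medians, and the dotted line is the median of all tested probe sets, -0.07; the COR genes lie farthest to the right, with a median of 3.69.

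Markers of the labelled tissue and of others were read from the genes the annotation names. The leaf marker RCA, which activates the carbon-fixing enzyme Rubisco, was bright on all 4 arrays, at 4813 and 4692 at 1 h and 5464 and 5787 at 24 h, and did not pass (log2 0.24 ± 0.10, adjusted p = 0.101). The root marker PYK10, the glucosidase of the ER bodies of roots and seedlings, read 158 and 144 against 109 and 85.3 (log2 -0.62 ± 0.17, adjusted p = 0.0301). Of 9 root markers listed 2 were named on the array, and the other was too dim to test. PYK10 was far below RCA but above the median signals, 37.5 on both 1 h arrays and 34.3 and 32.8 on the 24 h arrays. Its call was lost without 1 h replicate 1 (0.149), 1 h replicate 2 (0.0801) or 24 h replicate 2 (0.174), and also after quantile normalization (0.0596), centring (0.0682) and no filter (0.0527). The guard cell factor FMA read 65.6 and 70.1 against 54.5 and 41.4 and did not pass (adjusted p = 0.0946). No marker of the flower or seed was named on the array here. The part of other tissues in the gene groups above was not tested.

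The called probe sets were then looked up in the 4 arrays that the contrast itself does not use, the control and 7 d. Of the 1707 that were higher at 24 h than at 1 h, 1537 (90.0%) were also higher at 7 d than in the control, beside 49.9% of all tested probe sets. Of the 2206 that were lower, 1869 (84.7%) were lower at 7 d than in the control, beside 50.1%. Median differences between 7 d and control were 0.46 and -0.42. These were smaller than the median changes between 1 h and 24 h, 0.89 and -0.91. Control plants had brighter light, so this difference is not one of cold alone, and it carries no test.

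The match depended on size in opposite ways for the 2 directions. Of the 133 probe sets that rose at least 4-fold, 132 (99.2%) were above the control at 7 d, with a median difference of 1.55. Of the 165 that fell at least 4-fold, 126 (76.4%) were below it, with a median of -0.45 for a median change of -2.55 between 1 h and 24 h. Single genes show this difference. LTI30, at 3825 and 3078 after 7 d, was still 5.00 above the control on the log2 scale, and AT1G16850 4.53 above it. EXPA8 differed from it by -2.60. CML38, at 5.56 and 14.6 after 7 d against 4.46 and 15.3 in the control, differed by 0.05, and AT4G29780 by -0.30. CML38 passed the filter through its 1 h arrays alone. Its control and 7 d signals therefore had to be dim, and its small difference is no further result. SWEET17, at 53.8 and 21.0 after 7 d, and LHCB4.3 differed from the control by -2.62 and -2.75.

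**Figure D5:**
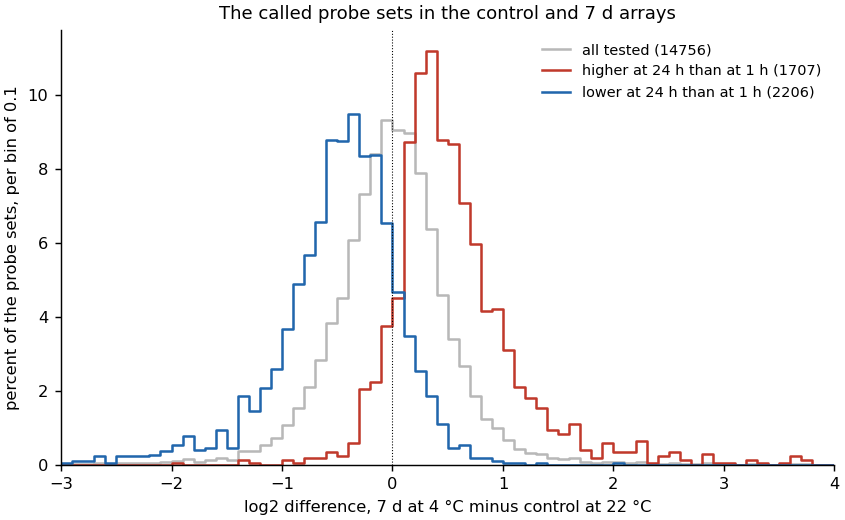
Distribution of the log2 difference between 7 d at 4 °C and the control, as the percent of probe sets in each bin of 0.1, for all 14756 tested probe sets (grey), the 1707 higher (red) and the 2206 lower (blue) at 24 h than at 1 h. Of the red set 90.0% lie above 0 and of the blue set 84.7% lie below 0, whereas the grey set is centred near 0.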

How the data were processed

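The values deposited by the authors are linear signal intensities made with MAS5, per the submitters' processing notes, which as used here give no version. The mean after trimming 2% at each end was 100 on every array, and this scaling was kept. Neither scan dates nor detection calls were used, and no batch could be tested. Arrays were grouped by the time in their labels. Intensities were used as log2(signal + 6.07), the pseudocount being the 20th percentile of the table, and fold changes on that scale understate those of dim genes. A probe set was tested if at least 2 arrays read it at or above the 40th percentile of that array. Of the tested probe sets, 68 passed through the 24 h arrays alone (23 called higher) and 40 through the 1 h arrays alone (23 called lower). The model, fitted in limma 3.58.1 (R 4.3.3, lmFit and then eBayes with a variance trend), had 1 mean for each of the 4 times and used the 8 arrays together, since 2 arrays against 2 leave few degrees of freedom; this leaves 4, and the median standard error was 0.19. An exact permutation test of 2 against 2 cannot go below p = 0.333, so none was run. Tests were two-sided with Benjamini-Hochberg adjustment over all 14756 probe sets.

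On simulated arrays for this comparison, over 14756 probe sets, the fit recovered 14.9% of 67 changes of 1.5-fold, 61.2% of 67 of 2-fold and 95.5% of 66 of 4-fold, and 8 of 122 calls were false (6.56%). The simulation changed only 200 probe sets, whereas 26.5% of the tested probe sets were called in the data. Because the adjustment depends on that share, these rates do not give the recovery in the data. Alternatives were other samples in the fit, a replicate block, 2 other scalings, 2 other pseudocounts, 2 other filters, no variance trend, and leaving out each array.

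Genes came from the platform annotation, which named 1 gene for 13513 of 22746 probe sets, and symbols from RefSeq's table (assembly TAIR10.1, used for names alone, 13436 matched). Of 24 gene lists with 544 genes, 153 genes were tested and 5 lists had no tested member: jasmonate, abscisic acid, heat-shock, membrane lipid and cytosolic ribosomal proteins. The single tested cold-shock RNA-binding gene did not pass. The rule for names took the 15 largest changes in each direction that passed, named 1 gene and did not overlap, the 4 members of each list with the smallest adjusted p, and markers that passed. Further list members, markers that did not pass and all other genes in the text were named after their values were seen. Members and lists were chosen with earlier results of these data known. Promoter sequences were not used here.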

Additional observations from a re-analysis of the deposited data

How the results depend on the processing

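Of 127 named or listed genes that passed, 89 kept their call and direction under all 17 alternatives, except that UGT78D3 was not tested with the 60th-percentile filter. The calls of 38 were lost in at least 1 alternative, which the text gives or counts beside each gene. No named call changed direction. RCA, which did not pass, went from 0.24 to -0.046 after quantile normalization (adjusted p = 0.638), and passed when arrays were centred (0.38, adjusted p = 0.0240) and without either control array (0.0450 and 0.0447). When each array was left out in turn, the higher probe sets numbered 914 to 1713 and the lower 994 to 2293, and those at least 2-fold apart 592 to 700 and 668 to 961. With the larger pseudocount, 4 times the main one, 564 were at least 2-fold lower in place of 931, since a larger pseudocount shrinks the change of dim genes. The share of called probe sets that moved the same way between control and 7 d was 86.1% to 93.4% for the higher and 76.3% to 87.8% for the lower when each array was left out. It was 81.4% for the lower with the replicate block, 87.1% for the lower after quantile normalization and 88.4% for the higher with centring. Arrays with the same replicate number deviated together only weakly (correlations of 0.16 to 0.36 between times) and there are only 2 numbers, so the pairing is not established. With the replicate number as a block, 2084 were higher and 2823 lower, and of the genes named AT5G39670 (adjusted p = 0.000828), DFR (0.00440), WES1 (0.0395) and RALFL24 (0.0440) also passed. With 2 arrays at each time, small changes can be missed. In the simulation most changes of 1.5-fold were, but it changed few probe sets, so the rate in the data is not known.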

Other observations

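Gene families that share a symbol stem and have at least 6 tested members were counted as well, a rule made after the data were seen, and the counts stand beside 11.6% higher and 14.9% lower of all tested probe sets. The RALF-like peptides, secreted signals of cell growth, had 6 tested members, of which 5 fell and 0 rose (median -0.79). Besides RALFL33 and RALFL31 these were RALFL34 (-0.74 ± 0.16), RALFL22 (-0.67 ± 0.14) and RALFL32 (-0.83 ± 0.24). Their calls were lost without 1 h replicate 1, with adjusted p of 0.0690, 0.0781 and 0.161. Those of RALFL34 (0.0680) and RALFL22 (0.0675) were also lost without 24 h replicate 2, and that of RALFL32 in 5 further settings. The calls of RALFL31 and RALFL33 held throughout. The ubiquitin-specific proteases, which remove ubiquitin from proteins, moved the other way: 5 of 12 UBP genes rose and 0 fell, with UBP23 at 0.83 ± 0.15 and UBP15 at 0.67 ± 0.15, the latter lost without 1 h replicate 2 (adjusted p = 0.0636) and without 24 h replicate 2 (0.0792). Of 14 TBL genes, whose family acetylates wall polysaccharides, 4 fell and 0 rose, TBL36 by 1.84 ± 0.41 and TBL26 by 1.11 ± 0.19; the call of TBL36 was lost without 1 h replicate 1 (0.0725) and without 24 h replicate 1 (0.0771). TBL35 (-0.98) lost its call without 1 h replicate 1 (0.0580), 1 h replicate 2 (0.0550) or 24 h replicate 2 (0.0537). Of 9 IQD genes, for calmodulin-binding scaffold proteins, 4 fell and 0 rose, with IQD24 at -0.80 ± 0.19, a call lost without 1 h replicate 1 (adjusted p = 0.109) and without 24 h replicate 2 (0.105). The call of IQD31 (-0.54) was lost without any 1 of the 4 arrays of the 2 times (0.0518 to 0.0963).

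In 3 other families members moved in both directions. Of 6 tetraspanins, TET3 and TET2 rose (TET2 by 0.95 ± 0.17) and TET8, TET10 and TET7 fell (TET7 by 1.02 ± 0.17). Of 14 serine carboxypeptidase-like genes 5 fell and 1 rose, scpl26 by -1.01 ± 0.14 and scpl48 by 0.69 ± 0.13. The call of scpl50, which fell by 1.18, was lost without 1 h replicate 1 (0.0617) or 24 h replicate 2 (0.0661). The 25 UGT glycosyltransferases split into 5 higher and 4 lower with a median of 0.04.

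Neighbouring genes did not always move alike: DI21 rose by 1.76 and the next locus in number, SWEET17, fell by 1.51.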
